A study of Mus musculus with 8 samples.

Results

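The glutathione transferases, glutathione peroxidases, peroxiredoxins, superoxide dismutases, catalase, thioredoxins and glutaredoxins were followed as 1 set of antioxidant enzymes in mouse skin. The members are all array probes whose gene name in the scanner files belongs to these families: Gst with a class letter and a number, Mgst1 to Mgst3, Gpx, Prdx, Sod1 to Sod3, Cat, Txn1, Txn2 and every Glrx. The rule found 63 probes of 44 genes among 41174 probes on the array. Of these, 57 probes of 42 genes were bright enough to test, among 28580 tested probes in all. All probes of a gene were kept apart, because probes of 1 gene can differ.

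The study used 8 male SKH-1 mice, a hairless strain, aged 19 weeks, whose backs had been exposed to repeated UVB over 10 weeks. From 1 week after the last exposure, 4 mice received enalapril maleate (1% in 30% ethanol) on the dorsal skin, and 4 received the 30% ethanol alone as vehicle, in both groups 5 times a week for 2 weeks. Enalapril blocks angiotensin-converting enzyme, which makes angiotensin II. Whole dorsal skin RNA of each mouse was labelled with Cy3 and hybridised to 1 Agilent array, and no unirradiated skin is among the samples analysed here. The 4 vehicle arrays lay on 1 slide and the 4 enalapril arrays on another, each scanned as its own set, so the drug and the slide or scan cannot be told apart here. In whole skin, fewer cells of a type and less RNA per cell cannot be told apart either.

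Glutathione transferases join the tripeptide glutathione to reactive electrophiles, such as products of lipid peroxidation. Superoxide dismutases turn superoxide into hydrogen peroxide, and catalase, glutathione peroxidases and peroxiredoxins then remove the peroxide. Glutathione, thioredoxin and glutaredoxin carry electrons for the peroxidases and peroxiredoxins, and UV light is a known source of such oxidants in skin. Levels are given as log2 signal relative to the 75th percentile of the same array, so that 0 is the signal of a probe at that percentile. A change is the mean of 4 enalapril arrays minus the mean of 4 vehicle arrays on this log2 scale, and "lower" or "higher" is used of probes with a limma adjusted p under 0.05. Between 67.1% and 72.7% of an array's spots were well above background, no spot was saturated, and any pair of arrays correlated at 0.970 to 0.993 over the tested probes.

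A part of the antioxidant enzyme transcripts was lower in enalapril-treated skin than in vehicle skin, and none was higher. By limma, 18 of the 57 tested probes, from 16 genes, were lower and 0 were higher, where 6.61% of all tested probes were lower and 3.82% higher. At an unadjusted limma p under 0.05 the members gave 33 lower and 1 higher, against 18% lower and 11.4% higher of all tested probes. The median change of the member probes was -0.37 against -0.05 for all tested probes, and 49 of 57 members (86.0%) lay below 0, against 55.5% of all tested probes. All 4 enalapril arrays lay below all 4 vehicle arrays at 25 member probes, a pattern that 13.1% of all tested probes showed, and no member probe had all enalapril arrays above all vehicle arrays, against 7.12% of all tested probes. The largest fall among members was that of Gstt2, at -1.07. Of all called probes 36.6% were higher, a share that was 47.8% under quantile normalization and 4.97% in the unscaled values of the authors' series matrix, where 6 members were lower in either case.

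How many probes passed the test depended on single arrays. The count of lower members was 2 without vehicle 1, 2 without vehicle 2, 8 without vehicle 3, 1 without vehicle 4, 3 without enalapril 1, 1 without enalapril 2, 1 without enalapril 3 and 29 without enalapril 4. The same steps took the count over all tested probes from 1888 to between 217 and 3785. Without vehicle 4, enalapril 2 or enalapril 3, the 1 lower member is 1.75% of members. Of all tested probes, 1.49%, 0.899% and 1.28% were lower in these fits, so 1 probe cannot set the members apart there. In the other fits the member share ran from 3.51% to 50.9%, against 0.759% to 13.2% of all tested probes. The size of the shift moved less: the members' median change stayed between -0.42 and -0.32 whichever array was left out. Array by array, the members' median difference from the vehicle mean was -0.48, -0.31, -0.46 and -0.19 in enalapril 1 to 4, and between -0.05 and 0.06 in the vehicle arrays. Enalapril 4 stood nearest to the vehicle arrays.

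**Figure D1:**
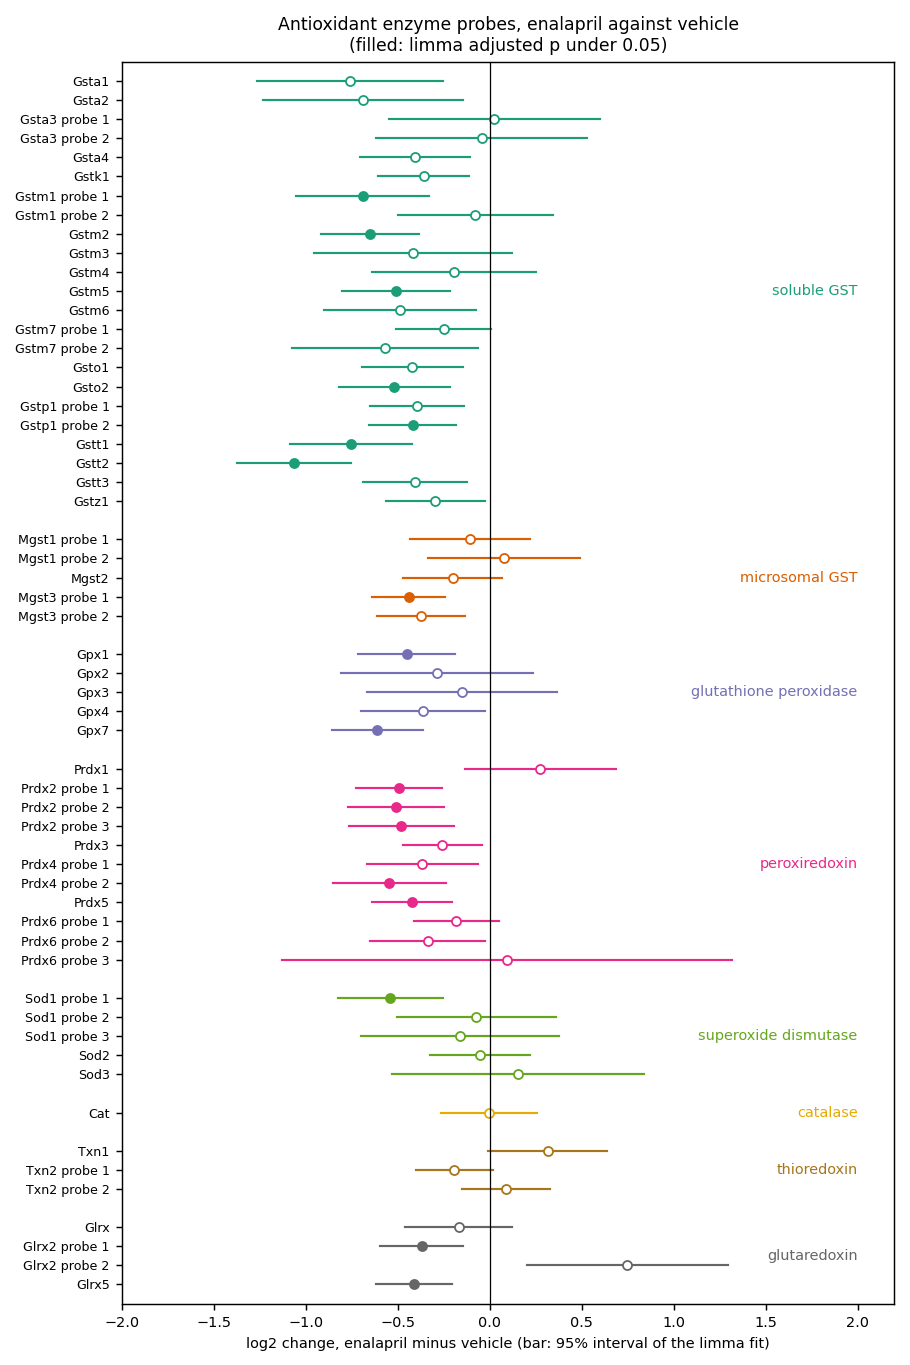
Change of each of the 57 tested member probes, as log2 enalapril minus vehicle (horizontal axis), with the 95% interval of the limma fit, ordered by enzyme class and gene. Filled points are the 18 probes with an adjusted p under 0.05, all to the left of 0, and probe 1 of a gene is its brightest.

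Many members were bright, and bright probes were lower more often than the rest. Among the 7145 brightest tested probes, 11.1% were lower and 0.896% higher, and 36 of the 57 members were among them, 14 of these lower. The tested probes were therefore put into 20 equal classes by mean level, and each member was read beside its own class. The median difference between a member's change and that of its class was -0.23, and 44 of 57 members lay below their class. Classes of equal brightness would give 10.4% lower and 2.12% higher on average, where 31.6% of members were lower. These are descriptions, with no test of the set.

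**Figure D2:**
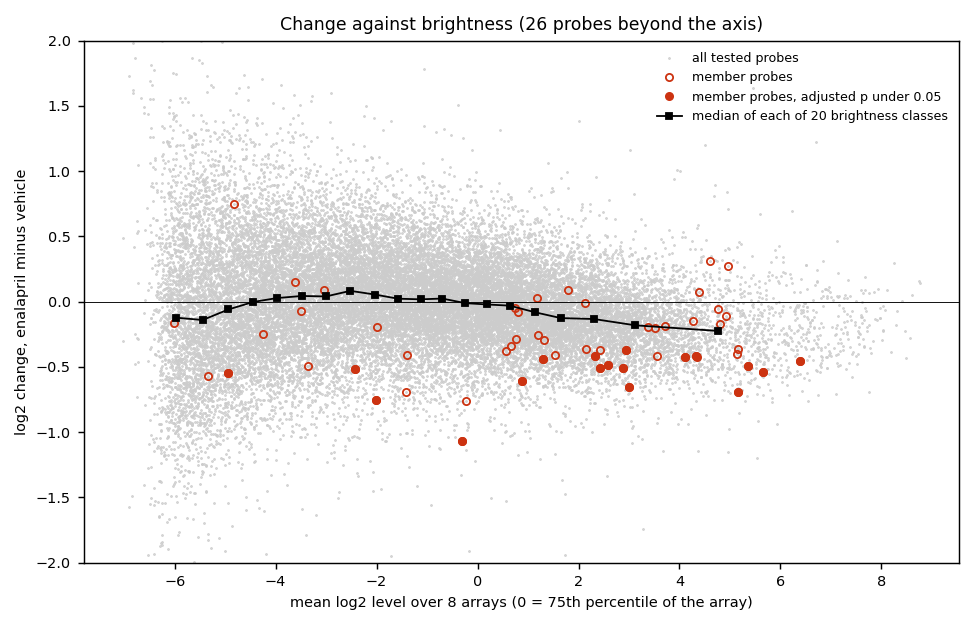
Log2 change (vertical axis) against the mean log2 level over the 8 arrays (horizontal axis) for all tested probes in grey, the median of each of 20 brightness classes in black and the member probes in red, filled where lower. Most members lie below the black line at both low and high brightness; 26 probes, none of them members, lie beyond the axis at 2 and -2.

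Other transcripts of the same skin moved too. Of 18 skeletal muscle marker probes from 14 genes, 10 were lower, such as those of Mylpf, Tnnt3 and Myl1, and 0 higher in enalapril skin. Acta1 (-0.54), Ckm (-0.76) and the probes of Myh4 (0.22 and -0.09) and Atp2a1 (0.27 and -0.04) were among those that did not pass. The summed signal of the 18 probes per array ran from 922 to 1377 in vehicle and from 756 to 826 in enalapril. Of 16 adipocyte marker probes from 12 genes, 5 were lower, such as those of Adipoq and Cidec, and 0 higher. Plin1, at -0.54, was among those that did not pass (limma adjusted p 0.0501). The adipocyte sums were 350 to 436 in vehicle and 226 to 347 in enalapril (in both cases 1 unit is the array's 75th percentile). All 14 muscle and all 12 adipocyte marker genes were bright enough to test, on at least 4 of the 8 arrays, which need not include both groups. Both sums separated the groups, as the members' median did, but the order of arrays within a group differed. Enalapril 4, whose members' median was nearest to vehicle, had the lowest muscle sum (756) and the highest enalapril adipocyte sum (347). The part that these tissues take in the members' fall was not tested. Suprabasal keratinocyte, sebaceous gland, endothelial, macrophage and erythroid markers had 0 lower and 0 higher probes by limma. Basal keratinocyte markers had 1 lower and 2 higher of 16, T cell markers 1 higher of 10 (a dim Cd4 probe), and fibroblast markers 1 higher of 14 (a Col1a1 probe, at 0.89). Other probes of these genes did not pass: the brightest Col1a1 probe stood at 0.04 and another at -0.01, and the other Cd4 probe at -0.20.

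**Figure D3:**
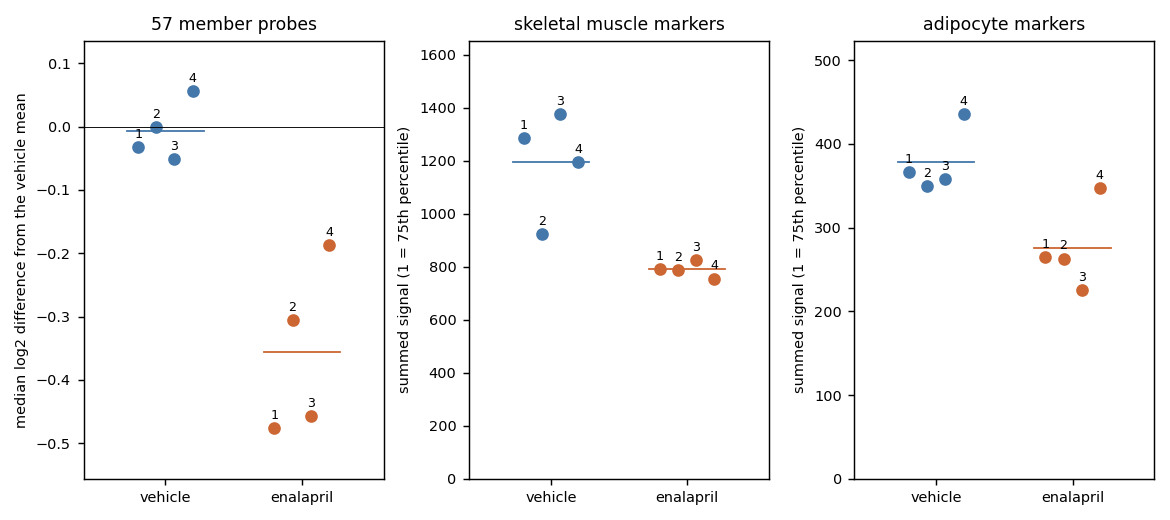
Values of each array (numbered by replicate, n = 4 per group, horizontal line at the mean): the median log2 difference of the 57 member probes from the vehicle mean, and the summed signal of skeletal muscle and adipocyte markers relative to the 75th percentile. The vehicle and enalapril arrays do not overlap in any of the 3 panels.

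The theta transferases, which act on small halogenated and epoxide substrates, held Gstt2, the member with the largest change. Gstt2 had levels of 0.06, 0.12, 0.18 and 0.56 in vehicle 1 to 4 and -1.01, -0.89, -0.78 and -0.68 in enalapril 1 to 4. Every enalapril array was below every vehicle array by a wide gap. The change was -1.07 ± 0.14 (SE, n = 4 per group; 2.10-fold lower, limma adjusted p 0.0108), at percentile 0.42 of its brightness class. Of the 18 lower probes it was the only one that stayed lower whichever array was left out, with adjusted p values up to 0.0411 there and from 0.00199 to 0.431 over all alternatives.

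Gstt1 levels were -1.73, -1.90, -1.42 and -1.49 in vehicle 1 to 4 and -2.52, -2.46, -2.48 and -2.11 in enalapril. The groups did not overlap, with enalapril 4 the highest of its group, and the change was -0.76 ± 0.15 (SE; 1.69-fold lower, limma adjusted p 0.0220). Gstt3, at -0.41 ± 0.12, did not pass the test (limma adjusted p 0.0703), and its groups overlapped slightly. Measured as the difference between Gstt2 and Gstt3 on the same array, the gap widened by -0.66, from -1.50 ± 0.19 (SD) in vehicle to -2.16 ± 0.07 in enalapril, with no overlap.

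The theta genes lie side by side in the mouse genome in the order Gstt3, Gstt1, Gstt4, Gstt2 in the reference gene table. Gstt4, which the array names by an older clone name and which the rule therefore leaves out, had 2 dim probes at -1.49 ± 0.63 and -0.67 ± 0.30 that did not pass the test. The coding genes on either side, looked up after the theta values were seen, were also lower: Ddt, D-dopachrome tautomerase, at -0.56 (limma adjusted p 0.0234) and its relative Mif, macrophage migration inhibitory factor, at -0.48 (0.0377). Beyond those, Derl3 (-0.41), Smarcb1 (-0.17), Susd2 (-0.004) and the 3 probes of Cabin1 (-0.49 to 0.20) did not pass the test. Near the other soluble transferase clusters, only Tmem14a and Nudt8 were lower among the tested neighbours. Tmem14a, beside Gsta3, stood at -0.57 (limma adjusted p 0.0387) and at -0.44 (0.0623) at its other probe. Nudt8, near Gstp1, stood at -0.46 (0.0342).

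The mu transferases, a cluster of close relatives that conjugate many xenobiotics, lay on 1 side: all 9 probes of 7 genes were below 0 and 3 were lower. Gstm2 gave 3.14, 3.40, 3.26 and 3.49 in vehicle and 2.55, 2.64, 2.63 and 2.87 in enalapril. The groups were clear of each other, and the change was -0.65 ± 0.12 (1.57-fold lower, limma adjusted p 0.0195). Gstm5 gave 2.54, 2.68, 2.76 and 2.78 against 2.01, 2.15, 2.06 and 2.49, a change of -0.51 ± 0.13 (limma adjusted p 0.0425). Enalapril 4 came close to the lowest vehicle array there, without overlap.

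Gstm1 depended on the probe. Its bright probe read 5.69, 5.59, 5.29 and 5.44 in vehicle and 4.65, 4.86, 4.55 and 5.19 in enalapril, a change of -0.69 ± 0.16 (1.62-fold lower, limma adjusted p 0.0336). Its other probe gave -0.08 ± 0.19, with enalapril 4, at 1.29, above every vehicle array, and the mean of both probes did not pass. Gstm3 (-0.42), Gstm4 (-0.19), Gstm6 (-0.49) and both Gstm7 probes (-0.57 and -0.25) did not pass the test. The mu genes are similar in sequence, and how far a probe picks up the transcripts of a relative is not known from the files, so the split between Gstm genes is uncertain. Of the coding genes within 3 places of the cluster, looked up after the mu values were seen, Eps8l3 (-0.46) and Ampd2 (-0.09) adjoin it, Csf1 (-0.06), the 3 probes of Ahcyl1 (0.19 to 0.52) and Gnat2 (-0.58) lie further out, and none passed the test.

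Among alpha transferases, which handle lipid peroxidation products, 0 of 5 probes passed, although Gsta1 and Gsta2 showed large differences. Gsta1 read -0.22, 0.52, -0.16 and 0.43 in vehicle and -0.82, -0.20, -0.88 and -0.57 in enalapril; the highest enalapril array lay just above the lowest vehicle array, and the change of -0.76 ± 0.22 had a limma adjusted p of 0.0619. Gsta2, a near-identical copy whose signal may not be separate from that of Gsta1, stood at -0.69 ± 0.24 (0.0989). Gsta4, known for its activity on hydroxynonenal, stood at -0.41 ± 0.13 (0.0830) with no overlap of the groups. Gsta3 had values near 0: its probes gave 0.02 and -0.05, with enalapril arrays spread from 0.46 to 1.81 at the brighter probe. Gsta1 minus Gsta3 (brighter probe) on the same array went from -1.02 ± 0.37 (SD) to -1.81 ± 0.46, with overlapping groups.

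Gstp1, the pi transferase, gave like values at both probes. The bright probe read 5.43, 5.36, 5.25 and 5.31 in vehicle against 4.87, 4.99, 4.75 and 5.15 in enalapril (change -0.40 ± 0.11, limma adjusted p 0.0559). The dimmer probe read 2.47, 2.51, 2.63 and 2.52 against 2.01, 2.04, 2.07 and 2.33 (-0.42 ± 0.10, 0.0403). Neither probe's groups overlapped, and the pair lies on either side of the threshold. Gstp2 is nearly the same sequence, so the value may cover both genes.

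Omega, kappa and zeta transferases were all below 0. Gsto2, of the omega class with dehydroascorbate reductase activity, was lower by -0.52 ± 0.13 (limma adjusted p 0.0427), with vehicle arrays between -2.32 and -2.02 and enalapril arrays between -2.93 and -2.45; with normexp background correction the value was 0.02, and -0.35 once 6 spots of enalapril 3, whose local background was over 10 times the median, were repaired. Its relative Gsto1 stood at -0.42 ± 0.12 (0.0581), the mitochondrial and peroxisomal Gstk1 at -0.36 ± 0.11 (0.0697), and Gstz1, of tyrosine breakdown, at -0.30 ± 0.12 (0.137), none of which passed. Over all soluble transferases, 7 of 23 probes were lower, 22 were below 0, and the median change was -0.42.

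Of the microsomal transferases, membrane proteins of a separate fold, only Mgst3 had a probe past the test. Its bright probe read 1.56, 1.58, 1.49 and 1.46 in vehicle and 1.04, 1.14, 1.01 and 1.13 in enalapril, groups with little internal spread and no overlap, for a change of -0.44 ± 0.09 (1.36-fold lower, limma adjusted p 0.0239). The other tested Mgst3 probe stood at -0.38 ± 0.11 (0.0567). Mgst1, the most studied liver form, gave -0.11 ± 0.14 and 0.08 ± 0.18 at its probes, with 95% intervals from -0.44 to 0.22 and from -0.34 to 0.49. Mgst2, which can also make leukotriene C4, stood at -0.20 ± 0.12. The difference between Mgst3 and Mgst1, at the brightest probe of each, went from -3.44 ± 0.11 (SD) to -3.78 ± 0.22, and the groups overlapped.

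**Figure D4:**
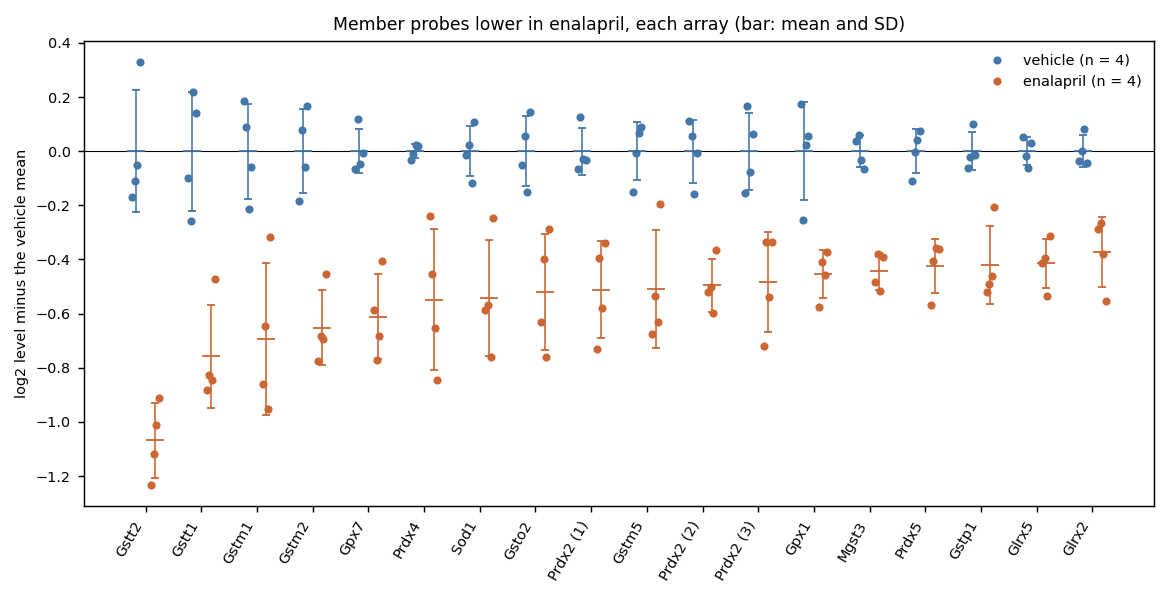
Values of the 18 lower member probes on every array, as log2 level minus the vehicle mean (vertical axis), with the mean and SD of each group (n = 4). The vehicle and enalapril points are separate at every probe, and Gstt2 has the widest gap.

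Glutathione peroxidases use glutathione to reduce hydrogen peroxide and lipid peroxides. Gpx7, a form of the endoplasmic reticulum, read 1.13, 1.31, 1.15 and 1.19 in vehicle and 0.61, 0.42, 0.51 and 0.79 in enalapril. The groups stood apart, and the change was -0.61 ± 0.11 (1.53-fold lower, limma adjusted p 0.0192). Gpx1, the selenium enzyme of the cytosol and mitochondria, read 6.80, 6.37, 6.64 and 6.68 against 6.05, 6.21, 6.16 and 6.25. It was lower by -0.45 ± 0.12 (0.0440), and vehicle 2 was the lowest of its group.

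Gpx4, which reduces phospholipid hydroperoxides and guards against ferroptosis, read 5.44, 5.24, 5.32 and 5.39 in vehicle and 4.87, 4.98, 4.70 and 5.37 in enalapril. Enalapril 4 lay among the vehicle arrays while the other enalapril arrays were below them, and the change of -0.37 ± 0.15 did not pass (limma adjusted p 0.141). Gpx2 (-0.29 ± 0.23) and the secreted Gpx3 (-0.15 ± 0.23) had wide overlap. The epididymal Gpx5 and the olfactory Gpx6 were not well above background on at least 4 arrays and were not tested.

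Peroxiredoxins reduce peroxides with a reactive cysteine, which thioredoxin restores in most of them. Prdx2, the cytosolic form best known from red blood cells, was the only gene with several tested probes that were all lower. Its brightest probe read 5.71, 5.66, 5.45 and 5.60 in vehicle and 5.08, 5.10, 5.01 and 5.24 in enalapril (change -0.50 ± 0.10, limma adjusted p 0.0257). Another read 3.07, 3.26, 3.11 and 3.1 against 2.41, 2.74, 2.56 and 2.80 (-0.51 ± 0.12, 0.0325). The third changed by -0.48 ± 0.13 (0.0461), with 2.68 to 3.0 in vehicle and 2.11 to 2.50 in enalapril, so all 3 gave a like fall and none had overlapping groups.

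Prdx5, found in mitochondria, peroxisomes and cytosol, read 4.22, 4.33, 4.37 and 4.40 in vehicle and 3.76, 3.93, 3.97 and 3.97 in enalapril. The change was -0.42 ± 0.10 (limma adjusted p 0.0329) with no overlap. Prdx4, the form of the secretory pathway, was lower at a dim probe with -4.70, -4.67, -4.64 and -4.65 against -4.91, -5.12, -5.32 and -5.51 (-0.55 ± 0.14, 0.0398). Its brighter probe stood at -0.37 ± 0.13 (0.107): enalapril 1 to 3 lay between 2.10 and 2.13, below all vehicle arrays, and enalapril 4 was at 2.61, among them. With normexp background correction the dim probe's change was 0.58, and -0.02 with the repaired backgrounds.

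The mitochondrial Prdx3 (-0.26 ± 0.09, limma adjusted p 0.110) and Prdx6, which uses glutathione in place of thioredoxin (-0.18 ± 0.10 at its brightest probe), did not pass. The other tested Prdx6 probes did not pass either. They stood at -0.34 ± 0.14, without overlap of the groups, and at 0.09 ± 0.54, with overlap. Prdx1, the most general cytosolic form, read 4.99, 4.72, 4.82 and 4.76 in vehicle and 5.12, 5.11, 4.63 and 5.53 in enalapril. Enalapril 1, 2 and 4 were the highest of the 8 arrays and enalapril 3 was the lowest, so that the change of 0.27 ± 0.18 had a 95% interval from -0.14 to 0.69 (0.347). The difference between Prdx2 and Prdx1 on the same array was 0.78 ± 0.13 (SD) in vehicle and 0.01 ± 0.28 in enalapril, without overlap. This pair and the other 5 pairs of relatives were picked with their values known, so no test is given; the groups overlapped in 2 of the 6.

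Of the superoxide dismutases, Sod1 had the one probe past the test. Sod1, the copper and zinc enzyme of the cytosol, read 5.91, 5.95, 5.81 and 6.04 in vehicle and 5.34, 5.36, 5.17 and 5.68 in enalapril at its bright probe. Its groups did not overlap, and the change was -0.54 ± 0.13 (1.46-fold lower, limma adjusted p 0.0343). Both other Sod1 probes were dim and carry another transcript accession; they gave -0.07 ± 0.19 and -0.16 ± 0.24. When the 3 probes were averaged the gene no longer passed.

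Sod2, the manganese enzyme of mitochondria, read 4.82, 4.81, 4.76 and 4.74 in vehicle and 4.67, 4.82, 4.47 and 4.95 in enalapril. The enalapril arrays lay on both sides of a tight vehicle group, with a change of -0.05 ± 0.12 and a 95% interval from -0.32 to 0.22 (limma adjusted p 0.80). On the same arrays, Sod1 minus Sod2 went from 1.15 ± 0.11 (SD) to 0.66 ± 0.08, without overlap. The extracellular Sod3 read -3.01, -4.02, -3.90 and -3.88 against -4.23, -3.52, -3.46 and -2.99, a change of 0.15 ± 0.30 with full overlap.

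Catalase, the heme enzyme of peroxisomes, showed no detectable difference. Cat read 1.99, 2.17, 2.01 and 2.39 in vehicle and 2.12, 2.11, 2.06 and 2.24 in enalapril. The enalapril arrays lay inside the vehicle range, and the change of -0.01 ± 0.11 had a 95% interval from -0.27 to 0.25 (limma adjusted p 0.973).

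Thioredoxins gave no probe past the test. Txn1, the cytosolic electron donor of peroxiredoxins, read 4.74, 4.42, 4.35 and 4.26 in vehicle and 4.72, 4.84, 4.52 and 4.95 in enalapril. All but 1 vehicle array lay below all enalapril arrays, and the change of 0.31 ± 0.14 had a 95% interval from -0.01 to 0.64 (limma adjusted p 0.180). The mitochondrial Txn2 stood at -0.20 ± 0.09 and 0.09 ± 0.10 at its probes. Within arrays, Txn2 (brightest probe) minus Txn1 went from -0.98 ± 0.22 (SD) to -1.49 ± 0.14, without overlap. The signs of Txn1 and Prdx1 flip in the unscaled values of the authors' series matrix, at -0.05 and -0.09, where the median of all tested probes was itself -0.41. Under quantile normalization Txn1 was higher, at 0.52 (0.0449).

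Glutaredoxins use glutathione to reduce mixed disulfides, and Glrx5 serves iron-sulfur cluster assembly in mitochondria. Glrx5 read 4.59, 4.52, 4.48 and 4.57 in vehicle and 4.13, 4.14, 4.01 and 4.23 in enalapril. Both groups were tight and apart, with a change of -0.41 ± 0.09 (1.33-fold lower, limma adjusted p 0.0309). Glrx2, another mitochondrial form, was lower at its bright probe by -0.37 ± 0.10 (0.0492; 3.09 to 3.22 in vehicle, 2.58 to 2.87 in enalapril). A dim probe with another transcript accession of Glrx2 stood at 0.75 ± 0.24 (0.0816), the one member probe with an unadjusted p under 0.05 in the upward direction, and the mean of both probes was at 0.19. Glrx, the cytosolic form, stood at -0.17 ± 0.13.

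Where a gene had several tested probes, they often differed. Of 12 such genes, 7 had all probes on the same side of 0 and 5 did not. All probes were lower in 1 gene (Prdx2), some in 6 (Gstm1, Gstp1, Mgst3, Prdx4, Sod1 and Glrx2) and none in 5 (Gsta3, Gstm7, Mgst1, Prdx6 and Txn2). The range between probes of a gene ran from 0.02 in Gstp1 to 1.12 in Glrx2, with a median of 0.23. With only the brightest probe of each gene in the fit, 16 of 42 genes were lower, against 9.79% of all 19195 probes in that fit.

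**Figure D5:**
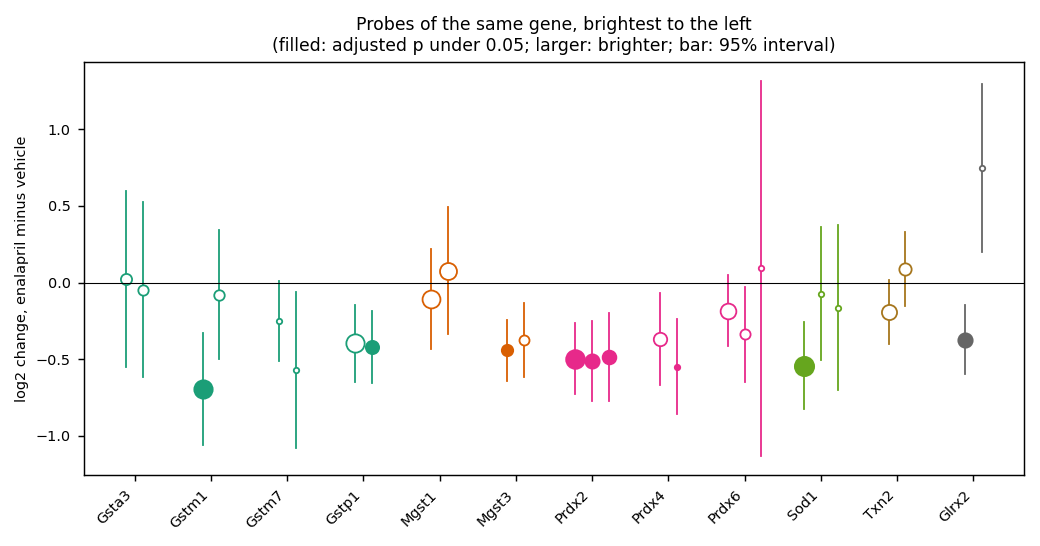
Log2 change (vertical axis) of each tested probe of the 12 genes with more than 1, brightest probe to the left and larger points brighter, with 95% intervals. The 3 Prdx2 probes lie together, while Sod1, Gstm1 and Glrx2 show a bright lower probe beside dimmer probes nearer to or above 0.

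Genes around these enzymes were counted from lists of the same pathways. Over 7 lists, 7 of 119 tested probes (5.88%) were lower, close to the 6.61% of all tested probes. Only 1 list probe was higher, where 3.82% of all tested probes were. In glutathione synthesis and recycling, Gclm, the modifier subunit of the rate-limiting ligase, was higher at 0.74 ± 0.17 (limma adjusted p 0.0330), Chac1, which degrades glutathione, was lower at -0.75 ± 0.13 (0.0195), and the list's median was 0.08 over 21 probes. Among the partners of thioredoxin and sulfoxide repair, Nxn was lower at -0.36 ± 0.09 (0.0420), 1 of 24 probes, while Txnrd1, the cytosolic thioredoxin reductase, stood at -0.37 ± 0.10 (0.0566) and Msrb2 by -0.57 ± 0.16 (0.0533). Among regulators and other targets of NRF2, the factor that drives many antioxidant genes, 1 of 17 probes passed, the carbonyl reductase Cbr1 at -0.40 ± 0.10 (0.0452), and Aldh3a1 stood at 0.75 ± 0.21 (0.0584). NADPH supply had a probe of Nnt lower at -0.39 ± 0.10 (0.0424), 1 of 12 probes, with Pgd at 0.44 ± 0.15 (0.0895). The other tested Nnt probes stood at 0.08 and 0.04 and did not pass.

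In the list of metallochaperones and peroxisome genes, Pex7, a peroxisomal import receptor, was lower at -0.52 ± 0.12 (limma adjusted p 0.0351), 1 of 16 probes. The copper chaperones Atox1 (-0.52 ± 0.14, 0.0518) and Ccs, which loads Sod1 (-0.41 ± 0.11, 0.0559), did not pass. Of selenoprotein genes, Selenoh was lower at -0.59 ± 0.12 (0.0241), 1 of 16 probes. Of the sources of superoxide and peroxide, Nox4 was lower at -0.67 ± 0.16 (0.0368) at a dim probe, 1 of 13. Its brighter probe stood at -0.28 ± 0.14 (limma adjusted p 0.220) and did not pass. With normexp background correction the dim Nox4 probe stood at 0.57, and at -0.01 with the repaired backgrounds.

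Promoters were searched for the core of the antioxidant response element, the binding sequence of NRF2, because many of these genes are known as its targets. The motif TGACNNNGC was sought on both strands of RefSeq windows from 250 bases before to 50 after each start site (GRCm38.p6). It occurred in 6 of 40 member genes with a window (15%), against 14% of 27025 genes. It stood in 2 of 15 genes with a lower probe (Gstm5 and Sod1) and in 4 of 25 others (Gsta3, Gstm7, Mgst1 and Prdx1). The share is close to that of all genes, and a match is a description, not a site. The stretches are shown because they set a lower gene (Sod1, Gstm5) beside genes that did not pass (Prdx1, Mgst1), written along the gene's strand with the motif or its reverse complement in capitals.
Gstm5: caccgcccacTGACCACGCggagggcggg
Sod1: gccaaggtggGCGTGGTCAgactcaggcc
Prdx1: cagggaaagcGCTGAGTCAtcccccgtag
Mgst1: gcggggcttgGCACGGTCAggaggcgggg
Gsta3: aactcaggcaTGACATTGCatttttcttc
Gstm7: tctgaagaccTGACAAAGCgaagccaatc
They lie at chr3:107895802-107895830 for Gstm5, chr16:90220696-90220724 for Sod1, chr4:116685456-116685484 for Prdx1, chr6:138140461-138140489 for Mgst1 and chr1:21240454-21240482 for Gsta3, all on the plus strand, and at chr3:107931725-107931753 on the minus strand for Gstm7. Read along the motif's own strand, the capitals of Gstm5 and of Sod1 are both TGACCACGC.

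Of the remaining members, 6 probes were not tested because they were well above background on fewer than 4 arrays: those of Gpx5 and Gpx6, and 1 probe each of Gsto2, Glrx2, Mgst3 and Prdx6, genes that other probes cover. By the current symbol, Glrx3, Gstp3, Gstt4 and Gpx8 would also belong to these families, but the array lists them under older names and they are not members; 0 of their 6 probes passed the test by limma.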

How the data were processed

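RNA of 8 skin samples (4 vehicle, 4 enalapril) was measured on 1-colour arrays. The deposited scanner files hold spot intensity on a linear scale, made with Agilent Feature Extraction 9.1.3.1 per the file headers (version 9.1 per the submitters' processing notes). The deposited series matrix holds log2 values, which matched the log2 processed intensity with no centring. The deposited 0 or 1 flags are other values and served as filters.

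Outlier spots were removed, spots of a probe averaged, and log2 processed signals expressed relative to the 75th percentile of the non-control spots on the same array. Probes well above background on at least 4 of 8 arrays were tested with limma 3.58.1 in R 4.3.3 (group as the only term, two-sided, Benjamini-Hochberg over all 28580 tested probes). On at least 1 array, 47 of 41174 probes had no unflagged spot, and these were dropped. The script was tested on simulated data. The number of arrays limits the precision. The members, lists and the rule for named genes were chosen with earlier results of these data known. That rule gives per-array values for the 14 lower probes with the smallest adjusted p, the smallest p of each class and the brightest probe of Cat, Sod1 to Sod3, Gpx1, Gpx4, Prdx1, Txn1 and Gstp1, and up to 3 genes per pathway list. The labels call the replicates biological. RefSeq tables (GRCm38.p6) gave current symbols, gene order and promoter windows. Alternatives were other scalings, background corrections, filters, probe choices, variance models, a replicate block and each array left out.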

Additional observations from a re-analysis of the deposited data

Results flagged for a closer look

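In 7 of 114 sets of 4 arrays of a member probe, 1 array stood far from the other 3 of its group, where chance gives about 1 in 20 sets; 4 of the 7 were enalapril 4. Enalapril 4 was the highest of its group at Gstt1 (-2.11), at the brighter Prdx4 probe (2.61) and at the bright Txn2 probe (3.41), and the lowest at a dim Prdx6 probe (-4.88, against -2.43 for the next array). Without enalapril 4 that Prdx6 probe was higher, at 0.72 (limma adjusted p 0.0091). Enalapril 1 was the lowest of its group at Gsto1 (3.88), vehicle 3 the highest at Prdx3 (1.42), and vehicle 1 the highest at Sod3 (-3.01).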

How the results depend on the processing

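The members' median change was negative under every alternative run, and its distance from the brightness classes stayed between -0.25 and -0.19; the median itself was -0.22 under quantile normalization and -0.73 in the unscaled series matrix. Counts moved more, and the cause was not tested unless named. Lower and higher members, all probes and pathway list probes numbered as follows, against 18 and 0, 1888 and 1091, 7 and 1. Quantile normalization gave 6 and 1, 1074 and 982, 4 and 2. Median centring gave 9 and 0, 1319 and 672, 4 and 1. Centring on 10 E1A control probes gave 1 and 0, 183 and 97, 0 and 0. The series matrix gave 6 and 0, 1471 and 77, 2 and 0. Normexp with offset 50 gave 0 calls of any kind by limma; at an unadjusted p under 0.05 it gave 21 lower and 0 higher members and 1890 lower and 1174 higher probes. With the 6 spots of enalapril 3 whose local background exceeded 10 times the median repaired, it gave 14 and 0, 971 and 644, 6 and 2. Without a filter on dim probes, with more probes tested, the counts were 5 and 0, 888 and 504, 2 and 0. The brightest probe per gene gave 16 and 0, 1880 and 831, 12 and 2. The mean of a gene's probes gave 13 and 0, 1526 and 698, 6 and 1. An intensity trend gave 23 and 0, 2268 and 1148, 12 and 2. Array weights gave 32 and 0, 4936 and 3598, 19 and 10. At an adjusted p under 0.10 there were 26 and 1, 3427 and 2099, 17 and 5.

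With the replicate block there were 0 and 0 members, 8 and 30 probes, 0 and 0 list probes by limma, and at an unadjusted p under 0.05 30 lower and 1 higher members among 4615 lower and 3140 higher probes. Same-numbered arrays deviated together at correlations of -0.13, 0.08, 0.17 and 0.03, and differently numbered ones at -0.16 to 0.22. The numbers thus showed no sign of a pairing, but these few values cannot decide whether there was one. Leaving out 1 array gave 1 to 29 lower and 0 to 1 higher members, 217 to 3785 lower and 184 to 3276 higher probes, and 0 to 14 lower and 0 to 6 higher list probes; lower members at an unadjusted p under 0.05 numbered 26 to 37 there, among 4032 to 6159 lower probes. Directions turned with normexp at Gsto2 (0.023), the dim Prdx4 probe (0.58) and the dim Nox4 probe (0.57). With the repaired backgrounds they did not turn (-0.35, -0.02 and -0.01). Glrx2 turned (0.19) with the mean of its probes. A block for slide and scan could not be fitted. Probes well above background on fewer than 4 arrays were not tested in the main fit. The levels of a tested probe include arrays where it was not well above background. A dim Sod1 probe (-0.16), for example, was well above it on 2 vehicle and 3 enalapril arrays.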
